A study of Mus musculus with 4 samples.

Results

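The genes described here are 43 genes for copying DNA and for supplying its nucleotides, measured in mouse alveolar type 1 (AT1) cells, the thin cells lining the air sacs across which gas is exchanged. They were found by exact match of the gene symbol in the tables of the 4 libraries, and all 43 were present among 23990 genes and had a mean of at least 1 FPKM (fragments scaled to transcript length and sequencing depth), the level required for testing. AT1 cells were sorted at postnatal day 3 or 4 from lung-edge tissue of mice on a mixed B6 and 129 background, after digestion and exclusion of dead cells with a dye. Every mouse carried Scnn1a-Cre, in which the promoter of a sodium channel gene drives the recombinase. By their labels, the Sox2-labelled libraries (n = 2) had the genotype Scnn1a-Cre; Rosa[Sox2/+], with a Cre-dependent copy of the transcription factor gene Sox2, and the control-labelled ones (n = 2) had Scnn1a-Cre; Rosa[mTmG/+], with a membrane reporter at the same locus. Whether the libraries of a group stem from different animals is not stated in the labels, so p-values measure the spread between these libraries, which may be technical.

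DNA replication starts where the origin recognition complex, Cdc6 and Cdt1 load the Mcm2 to Mcm7 ring onto DNA, a step called licensing that geminin blocks once DNA synthesis has begun. Cdc45 and the GINS complex then turn the ring into a running helicase, primase and the polymerases make the new strands, PCNA holds the polymerases on DNA, and ribonucleotide reductase with its partner enzymes supplies the building blocks. Most of these genes are transcribed under E2F factors as cells approach DNA synthesis, so their RNA is abundant in cycling cells and low in resting ones. Fully differentiated AT1 cells are regarded as resting cells.

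Sox2 itself ran against the labels: it stood at 1.41 and 1.99 FPKM in the Sox2-labelled libraries and at 302 and 478 FPKM in the control-labelled ones. Whether titles or files were exchanged between the groups was not tested, so the genotypes are those the labels give and may not be those of the RNA. Every direction below follows the labels as deposited, so "lower in the Sox2-labelled libraries" means lower in the libraries with little Sox2 RNA. The AT1 markers Ager (157 to 3737 FPKM) and Hopx (334 to 674 FPKM) were present in all 4 libraries, and so was Sftpc, the surfactant gene of AT2 cells (796 to 21175 FPKM). The genes detected at 1 FPKM or more numbered 11062 to 12096 per library. Deposited bounds around each value had a median half-width of 6.49% to 19.7% of the value over the 43 genes, widest in Sox2-labelled replicate 2; the tables give no read counts, so the depth is unknown.

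All 43 genes had lower means in the Sox2-labelled libraries, and 27 of them fell past the threshold, an adjusted p below 0.05 in limma over all 12040 tested genes. That is 62.8% of the 43, where 8.11% of all tested genes were lower. No member was higher, with 0 also at an unadjusted p below 0.05, where 4.2% of all tested genes were higher. The log2 difference (Sox2-labelled minus control-labelled, on log2(FPKM + 1)) had a median of -1.63 over the 43 genes and ran from -2.46 to -0.63, against a median of -0.29 over all tested genes. Of all tested genes, 4.6% had a difference at or below the median of the 43. As ratios of group means, the control-labelled libraries were 1.7-fold to 5.81-fold higher, with a median of 3.52-fold; without Sox2-labelled replicate 1 they were 2.15-fold to 9.97-fold higher with a median of 5.53-fold. In 42 of the 43 genes (97.7%) both Sox2-labelled libraries lay below both control-labelled ones, as in 42.5% of all tested genes, and Rfc1 was the exception. The deposited bounds themselves did not overlap between the labels in 38 genes, among them all 27 that passed, as in 29.1% of the 11992 tested genes with a single entry. The call depends on the Sox2-labelled library with the lower values: without Sox2-labelled replicate 2, limma called 0 of the 43 genes at adjusted p below 0.05 and 20 at an unadjusted p below 0.05, all 43 differences stayed negative with a median of -1.16, and 0.955% of all tested genes were called lower. The share of all tested genes at an unadjusted p below 0.05 in that fit was not taken. In bulk RNA, fewer cycling cells and less of these RNAs per cell cannot be told apart.

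**Figure D1:**
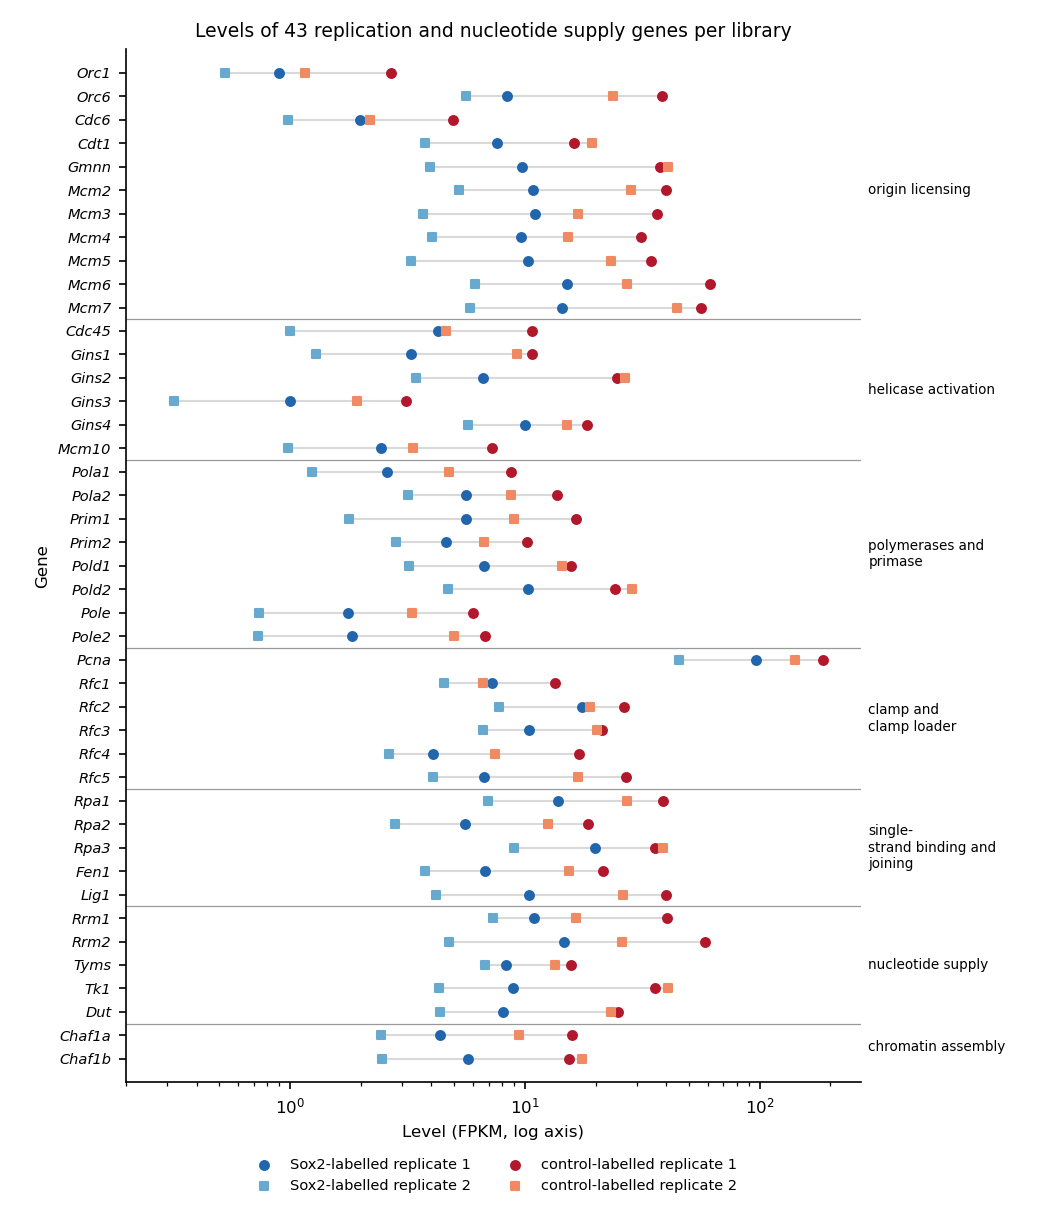
Level of each of the 43 genes (FPKM, log axis) in the 4 libraries, 1 point per library, grouped by role. In 42 genes both blue symbols (Sox2-labelled) lie left of both red ones (control-labelled), and the square for Sox2-labelled replicate 2 is the lowest value in all 43.

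Licensing genes fell in 9 of 11 cases, with a median log2 difference of -1.97. For this and each further role, the share to compare is the 8.11% of all tested genes that were lower. The roles hold few genes, their counts were not compared by a test, and every call depends on Sox2-labelled replicate 2. Geminin (Gmnn), the inhibitor of relicensing, showed the largest decrease of the 43 on the log2 scale. It stood at 9.75 and 3.94 FPKM in the Sox2-labelled libraries and at 37.8 and 40.7 FPKM in the control-labelled ones (log2 difference -2.46, SE 0.41, adjusted p = 0.00408 in limma). The control libraries were close to each other, while the Sox2-labelled libraries differed more among themselves. Cdt1, the loading factor that geminin binds, stood at 7.57 and 3.77 FPKM against 16.1 and 19.2 FPKM (log2 difference -1.54, adjusted p = 0.0297 in limma). The ratio of Gmnn to Cdt1, both per length, was 1.29 and 1.04 in the Sox2-labelled libraries and 2.34 and 2.12 in the control-labelled ones, without overlap. This ratio was chosen after the values were seen and was not tested. Other ratios were looked at too. That of Pole to Pold1 overlapped, at 0.264 and 0.231 against 0.383 and 0.229. That of Mcm10 to Mcm2 was higher in the Sox2-labelled libraries, at 0.227 and 0.187 against 0.181 and 0.118. Gmnn is listed on chromosome 13 at 24751844 to 24761937 and Cdt1 on chromosome 8 at 122568014 to 122573130 of mm10.

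The 6 subunits of the Mcm2 to Mcm7 ring all fell. Mcm7 had the largest difference of them, at 14.3 and 5.82 FPKM against 56.4 and 44.4 FPKM (log2 difference -2.32, SE 0.41, adjusted p = 0.00585 in limma). Mcm5 stood at 10.3 and 3.27 FPKM compared with 34.5 and 23.2 FPKM, and Mcm2 at 10.8 and 5.23 FPKM against 40.0 and 28.3 FPKM. In these 3 subunits the gap between the labels was wider than the difference between the control-labelled libraries. Mcm6 stood at 15.1 and 6.14 FPKM against 61.5 and 27.3 FPKM. Mcm3 stood at 11.1 and 3.68 FPKM compared with 36.5 and 16.8 FPKM, and Mcm4 at 9.61 and 4.02 FPKM against 31.3 and 15.2 FPKM. For Mcm3, Mcm4 and Mcm6 the control-labelled libraries differed from each other by more than the gap between the labels. Within a library the 6 subunits stayed close: the highest was 1.57-fold and 1.88-fold the lowest in the Sox2-labelled libraries and 1.97-fold and 2.92-fold in the control-labelled ones. The highest was Mcm6 in 3 libraries and Mcm7 in control-labelled replicate 2.

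Ratios of the group means for these subunits depend on single libraries. Without Sox2-labelled replicate 1 the control libraries were 6.52-fold (Mcm2), 7.24-fold (Mcm3), 5.78-fold (Mcm4), 8.82-fold (Mcm5), 7.24-fold (Mcm6) and 8.66-fold (Mcm7) higher. With all 4 libraries these ratios were 4.26, 3.61, 3.41, 4.25, 4.18 and 5.00. Without Sox2-labelled replicate 2 the ratio for Mcm5 was 2.80, and without control-labelled replicate 1 those for Mcm3, Mcm4 and Mcm6 were 2.28, 2.23 and 2.57. For Gmnn and Cdt1 the ratios of 5.73 and 3.12 became 9.97 and 4.69 without Sox2-labelled replicate 1.

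Subunits of the origin recognition complex, which marks the sites where the ring is loaded, differed in level. Orc6 was well expressed and fell, from 38.3 and 23.8 FPKM in the control-labelled libraries to 8.41 and 5.61 FPKM (log2 difference -1.98, SE 0.38, adjusted p = 0.00812 in limma). Orc1 stood at 0.893 and 0.526 FPKM compared with 2.70 and 1.16 FPKM, and did not pass (adjusted p = 0.266 in limma). Cdc6, the ATPase that loads the ring together with this complex, stood at 1.99 and 0.976 FPKM compared with 4.95 and 2.18 FPKM, and did not pass either (adjusted p = 0.237). Both are low genes, and the log2(FPKM + 1) scale understates their change.

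Of the 6 genes that activate the helicase, 2 fell and 4 did not pass, with a median log2 difference of -1.26. Gins2 stood at 6.66 and 3.43 FPKM against 24.7 and 26.6 FPKM (log2 difference -2.19, SE 0.38, adjusted p = 0.00540 in limma). Gins1 stood at 3.28 and 1.30 FPKM against 10.7 and 9.21 FPKM (log2 difference -1.80, adjusted p = 0.0210 in limma), a ratio of 4.35 that became 7.69 without Sox2-labelled replicate 1. In both subunits the control-labelled libraries were close to each other. The other 2 subunits of the complex did not pass: Gins3 stood at 1.00 and 0.319 FPKM compared with 3.10 and 1.92 FPKM, and Gins4 at 9.99 and 5.72 FPKM against 18.4 and 15.1 FPKM (adjusted p = 0.105 and 0.0941 in limma). The 4 subunits differ far more in level than the Mcm ring, with the highest 7.97-fold to 17.9-fold the lowest, Gins3, across the 4 libraries. Cdc45, which joins GINS on the ring, stood at 4.25 and 1.00 FPKM against 10.7 and 4.62 FPKM (adjusted p = 0.125 in limma). Sox2-labelled replicate 1 and control-labelled replicate 2 were thus close for Cdc45. Mcm10, a scaffold of helicase activation that is not part of the ring, stood at 2.45 and 0.976 FPKM against 7.23 and 3.34 FPKM (adjusted p = 0.113 in limma). Gins2 shares 2758 exon bases with Gse1 on the opposite strand, and without strand information the 2 cannot be separated.

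Polymerase and primase genes fell in 3 of 8 cases, with a median log2 difference of -1.45. Pold2, the second subunit of the lagging-strand polymerase delta, stood at 10.3 and 4.73 FPKM against 24.2 and 28.6 FPKM (log2 difference -1.76, SE 0.40, adjusted p = 0.0172 in limma). Its catalytic partner Pold1 stood at 6.72 and 3.21 FPKM against 15.7 and 14.4 FPKM (log2 difference -1.49, adjusted p = 0.0355 in limma). The leading-strand polymerase epsilon fell in its second subunit Pole2, at 1.83 and 0.729 FPKM against 6.79 and 4.99 FPKM (adjusted p = 0.0303 in limma). Pole2 shares 245 exon bases with the gene Gm49384 on the same strand. Without Sox2-labelled replicate 1 the ratios for Pold2, Pold1 and Pole2 moved from 3.51, 3.03 and 4.60 to 5.58, 4.69 and 8.08. The catalytic Pole stood at 1.77 and 0.740 FPKM compared with 6.01 and 3.30 FPKM and did not pass (adjusted p = 0.0710 in limma). Polymerase alpha and primase, which lay the first stretch of each strand, did not pass in any of their 4 subunits, Pola1, Pola2, Prim1 and Prim2 (adjusted p = 0.0606, 0.0823, 0.0515 and 0.125 in limma). Prim1, the catalytic primase, was nearest to the threshold at 5.59 and 1.78 FPKM against 16.5 and 8.97 FPKM. Pola1 stood at 2.58 and 1.24 FPKM against 8.72 and 4.74 FPKM, Pola2 at 5.59 and 3.18 FPKM against 13.7 and 8.69 FPKM, and Prim2 at 4.60 and 2.82 FPKM against 10.2 and 6.71 FPKM. In all 8 genes both Sox2-labelled libraries lay below both control-labelled ones, as in 42.5% of all tested genes.

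PCNA and its loader fell in 3 of 6 cases. Pcna, the sliding clamp, was the most abundant of the 43 genes, at 96.7 and 45.5 FPKM in the Sox2-labelled libraries and 185 and 141 FPKM in the control-labelled ones (log2 difference -1.27, SE 0.38). It did not pass (adjusted p = 0.0524 in limma). Pcna and Tyms have annotated processed pseudogenes, so how their fragments were divided is uncertain. Among the loader subunits Rfc5 stood at 6.67 and 4.06 FPKM against 27.1 and 16.9 FPKM (log2 difference -1.85, adjusted p = 0.0134 in limma). Rfc4 stood at 4.05 and 2.64 FPKM against 17.0 and 7.48 FPKM (adjusted p = 0.0478 in limma), and its ratio of 3.66 became 2.23 without control-labelled replicate 1. Rfc3 stood at 10.4 and 6.61 FPKM against 21.4 and 20.2 FPKM (adjusted p = 0.0473 in limma). These 3 small subunits fell, while Rfc2 and the large subunit Rfc1 did not pass. Rfc2 stood at 17.5 and 7.72 FPKM against 26.3 and 19.0 FPKM (adjusted p = 0.180 in limma), and it shares 952 exon bases with Lat2 on the opposite strand. Rfc1 had the smallest difference of the 43 genes, at 7.24 and 4.54 FPKM against 13.4 and 6.62 FPKM (log2 difference -0.63, SE 0.43, adjusted p = 0.357 in limma), and its groups overlapped. The lowest loader subunit was Rfc4 in both Sox2-labelled libraries and Rfc1 in both control-labelled ones. In control-labelled replicate 2 the deposited bounds of Rfc4 (6.19 to 8.77 FPKM) and Rfc1 (6.06 to 7.18 FPKM) overlapped, so their order there is not settled. Rfc4 also shares 175 exon bases with Eif4a2 on the opposite strand. A change of order with the label was not tested.

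All 5 genes for covering single strands and joining fragments fell, with a median log2 difference of -1.67. Lig1, the ligase that seals Okazaki fragments, stood at 10.4 and 4.20 FPKM against 39.9 and 26.1 FPKM (log2 difference -2.11, SE 0.43, adjusted p = 0.0110 in limma), a ratio of 4.52 that became 7.86 without Sox2-labelled replicate 1. Fen1, the nuclease that trims the same fragments, stood at 6.79 and 3.74 FPKM against 21.6 and 15.4 FPKM (adjusted p = 0.0211 in limma); it shares 1908 exon bases with the antisense gene Gm10143. The 3 subunits of replication protein A, which coats single-stranded DNA, all fell. Rpa1 stood at 13.9 and 6.99 FPKM compared with 38.6 and 27.1 FPKM, and Rpa2 at 5.57 and 2.80 FPKM against 18.5 and 12.5 FPKM. Rpa3 stood at 19.9 and 8.94 FPKM against 35.9 and 38.9 FPKM; the ratio of 2.59 became 4.18 without Sox2-labelled replicate 1. Their limma adjusted p-values were 0.0235, 0.0234 and 0.0398. Rpa2 was the lowest of the 3 subunits in every library, and the highest was 2.08-fold to 3.58-fold above it.

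Nucleotide supply genes fell in 3 of 5 cases, with a median log2 difference of -1.85. Thymidine kinase Tk1, which salvages thymidine, had the smallest adjusted p and the highest ratio of the 43 genes. It stood at 8.88 and 4.29 FPKM against 35.7 and 40.8 FPKM (log2 difference -2.44, SE 0.38, adjusted p = 0.00326 in limma), a 5.81-fold ratio that became 8.92 without Sox2-labelled replicate 1. Tyms, which makes thymidylate from deoxyuridylate, stood at 8.33 and 6.79 FPKM compared with 15.7 and 13.4 FPKM and did not pass (adjusted p = 0.128 in limma). The ratio of Tk1 to Tyms, per length, was 1.07 and 0.631 in the Sox2-labelled libraries and 2.27 and 3.04 in the control-labelled ones, again chosen after the values were seen and not tested. The small subunit of ribonucleotide reductase, Rrm2, stood at 14.7 and 4.76 FPKM against 58.7 and 25.8 FPKM (log2 difference -2.07, SE 0.51, adjusted p = 0.0254 in limma). Its ratio of 4.34 moved to 8.87 without Sox2-labelled replicate 1, 2.87 without Sox2-labelled replicate 2 and 2.65 without control-labelled replicate 1. The large subunit Rrm1 stood at 10.9 and 7.32 FPKM compared with 40.2 and 16.5 FPKM and did not pass (adjusted p = 0.0545 in limma). Rrm2 was above Rrm1 in 3 libraries, by 1.35-fold to 1.56-fold, and below it in Sox2-labelled replicate 2, at 0.651 of its level. Dut, which keeps uracil out of DNA, stood at 8.04 and 4.34 FPKM against 24.8 and 23.2 FPKM (log2 difference -1.85, SE 0.38, adjusted p = 0.0111 in limma).

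Both chromatin assembly genes fell. They encode subunits of chromatin assembly factor 1, which places histones on newly made DNA. Chaf1b stood at 5.70 and 2.47 FPKM against 15.3 and 17.5 FPKM (log2 difference -1.85, SE 0.41, adjusted p = 0.0164 in limma), and its ratio of 4.02 became 6.65 without Sox2-labelled replicate 1. Chaf1a stood at 4.34 and 2.44 FPKM against 15.9 and 9.45 FPKM (log2 difference -1.63, adjusted p = 0.0294 in limma). Chaf1a shares 1862 exon bases with Ubxn6 on the opposite strand.

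**Figure D2:**
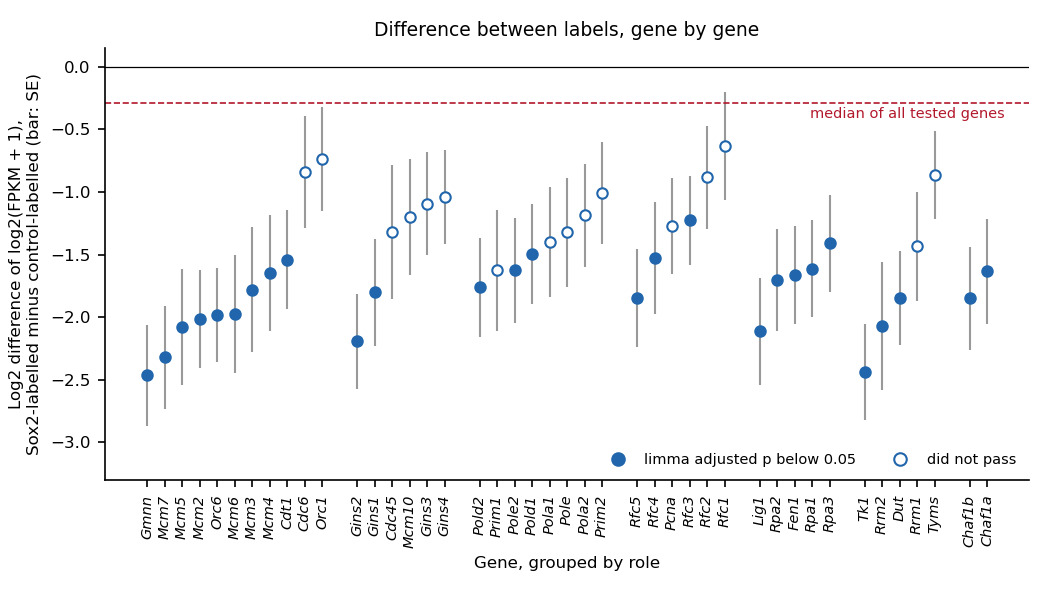
Log2 difference between the labels for each gene (points, with the SE from limma as bars), grouped by role and ordered within a role; filled points passed an adjusted p below 0.05. All 43 points lie below the dashed line, the median of all tested genes at -0.29, and single-strand binding with joining and chromatin assembly are the roles in which every gene passed.

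Of the 16 genes that did not pass, 12 had an unadjusted p below 0.05 in limma, as had 3558 of all 12040 tested genes in either direction. The 16 genes had a median mean level of 6.94 FPKM and a median ratio of 2.64, against 15.3 FPKM and 4.02 for the 27 that passed. The members with the lowest means, Orc1 and Gins3, are among them, but so is Pcna, the most abundant. In 36 of the 43 genes the mean reached 5 FPKM.

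The libraries of a label also differed from each other, and in the same way for most of the 43 genes. All 43 were lower in Sox2-labelled replicate 2 than in replicate 1, with a median ratio of 0.479, where 85.9% of all tested genes were lower and their median ratio was 0.736. In the control-labelled libraries 36 of the 43 were lower in replicate 2, with a median ratio of 0.673, where 72.6% of all tested genes were lower with a median of 0.769. The 7 genes higher in control-labelled replicate 2 were Cdt1, Gmnn, Gins2, Pold2, Rpa3, Tk1 and Chaf1b, and each of them passed between the labels. The summed level of the 43 genes was 426 and 204 FPKM in the Sox2-labelled libraries and 1190 and 862 FPKM in the control-labelled ones. All genes together summed to 391000 and 292000 FPKM against 490000 and 721000 FPKM. Of this, genes with symbols beginning Mir or Snor (small RNAs) took 54700 and 16800 FPKM against 94500 and 367000 FPKM. The effect of this imbalance on the levels of the 43 genes was not tested. The median spread within a label, as SD of log2(FPKM + 1), was 0.568 for the Sox2-labelled libraries and 0.372 for the control-labelled ones.

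Marker lists of the cell types that a sort of lung tissue can hold moved between the same libraries. The 10 AT1 markers summed to 6070 and 7360 FPKM in the Sox2-labelled libraries and to 1420 and 652 FPKM in the control-labelled ones, and the 10 AT2 markers to 26300 and 18200 FPKM against 6190 and 1020 FPKM. Of the AT1 list 8 were higher in the Sox2-labelled libraries and of the AT2 list all 10, the opposite direction to the replication genes. For each marker list the shares to compare are those of all tested genes, 4.2% higher and 8.11% lower. Basal and squamous markers summed to 2.69 and 2.55 FPKM against 66.6 and 323 FPKM. Of the 10 listed, 5 reached the mean required for testing, and 4 of these were lower. Those 4 reached it only through the control-labelled libraries, so the filter nearly fixed their direction and the count is no separate result. Most abundant of them in the control-labelled libraries were Dapl1 (41.6 and 150 FPKM), Krt4 (17.0 and 74.6 FPKM) and Krt6a (3.23 and 78.9 FPKM). Among the defining genes of basal cells Trp63 stood at 0.0605 and 0.0293 FPKM compared with 2.38 and 14.4 FPKM. Krt5 was listed at 0 in both Sox2-labelled libraries and at 0.00602 and 0.686 FPKM in the control-labelled ones. Krt14 did not follow, at 0.101 and 0 FPKM against 0.0246 and 0 FPKM. Nor did Krt15, at 1.75 and 1.60 FPKM against 1.46 and 1.43 FPKM. Endothelial markers summed to 160 and 73.6 FPKM against 51.0 and 22.5 FPKM (3 of 10 higher, none lower), mesenchymal markers to 313 and 108 FPKM against 138 and 33.8 FPKM (none of 9 passed), and leukocyte markers to 126 and 64.8 FPKM against 57.1 and 28.6 FPKM (1 of 8 higher). These 3 sums were lower in replicate 2 of each label, as were the AT2 sum and the sum of the replication genes. Most tested genes were lower there too, 85.9% in the Sox2-labelled and 72.6% in the control-labelled libraries. Between the labels the endothelial and leukocyte sums did not overlap, the Sox2-labelled libraries being above, while the mesenchymal sums overlapped. Of 8 erythroid markers in the tables, summed at 236 and 1080 FPKM against 64.4 and 282 FPKM, 4 were tested and 1 was higher. Club and ciliated markers summed to 4120 and 6620 FPKM against 2150 and 2240 FPKM, with 3 of 9 tested genes higher. Pecam1 and Cdh5 (endothelial), Ptprc (leukocyte), Col1a1 (mesenchymal) and Alas2 (erythroid) were above 0 in all 4 libraries. Ptprc and Alas2 were low, down to 0.566 and 0.262 FPKM. Some other markers of the erythroid, mesenchymal and club and ciliated lists were at 0 in a library. The part of these cell types in the replication result was not tested.

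Across processing settings all tested members kept a negative difference, while the number that passed varied with the library left out and with the filter. With a library left out, 1 group holds a single library, so these counts are not like those with all 4. Without either control-labelled library the total degrees of freedom per gene were 12000, against 10.9 with all 4 libraries. Those p-values thus rest on variance pooled over genes. Leaving out a library gave 21 lower members without Sox2-labelled replicate 1, 18 without control-labelled replicate 1 and 33 without control-labelled replicate 2, where 3.5%, 7.37% and 10.9% of all tested genes were lower. No member passed in all 4 of these fits with 1 library left out. Median-of-ratios rescaling, which sets the median of all genes to 0.00, gave 21 lower members of 43 and a member median of -1.33, where 5.7% of all tested genes were lower.

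**Figure D3:**
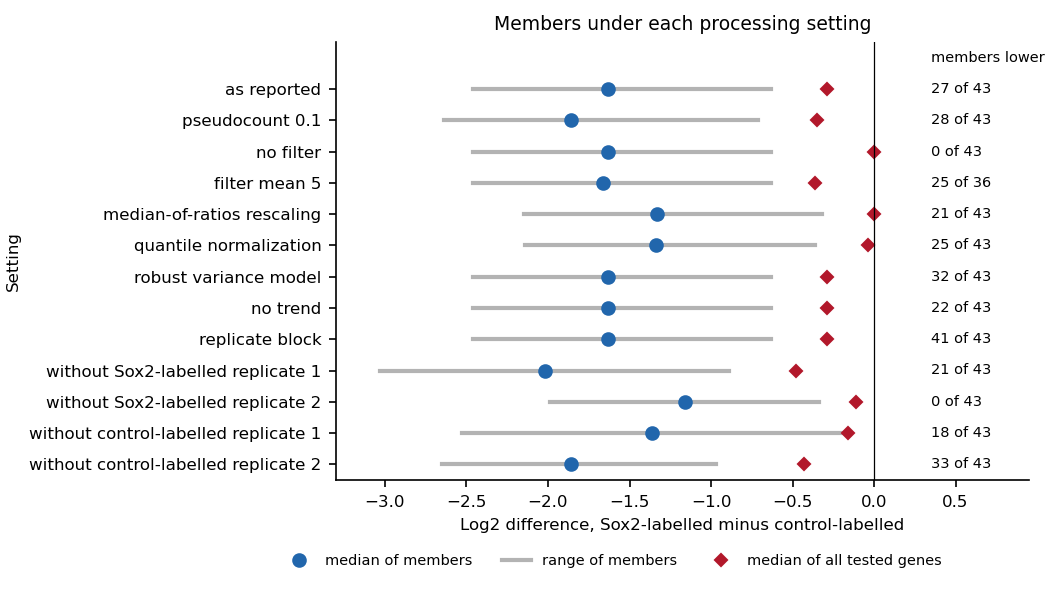
Log2 difference of the members under each processing setting (points for the median of the members, bars for their range, diamonds for the median of all tested genes), with the number of members called lower by limma beside each row. The range stays below 0 in every row, and the count is 0 of 43 with no filter on low values and without Sox2-labelled replicate 2.

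Other genes of the pathway were lower or did not pass, apart from Samhd1. Beside the counts of each further list stand the shares of all tested genes, 8.11% lower and 4.2% higher. Of 100 tested genes in 6 further lists 33 were lower, 1 was higher and 66 did not pass, with a median log2 difference of -1.21; without Sox2-labelled replicate 2, 2 were lower and none was higher, and without Sox2-labelled replicate 1 and control-labelled replicate 2 in turn 21 and 58 were lower. Mitosis genes, which act after replication, had 13 of 20 lower with a median of -2.05. The largest differences among them were those of Aurkb, a kinase of the chromosomal passenger complex, at 5.99 and 1.75 FPKM against 50.1 and 30.1 FPKM, and of its partner Birc5, at 6.93 and 3.53 FPKM against 54.9 and 40.3 FPKM (adjusted p = 0.00239 and 0.00109 in limma). Ube2c, which helps destroy mitotic cyclins, stood at 20.3 and 8.36 FPKM against 150 and 64.1 FPKM. Without Sox2-labelled replicate 2 the mitosis count was 2, and without control-labelled replicate 2 it was 20. The difference between the mitosis list and the 43 genes was not tested.

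The remaining initiation factors, 13 tested, had no call in either direction in limma and a median of -0.84. An unadjusted p below 0.05 in limma was found for 3558 of all 12040 tested genes and for 6 of these 13 factors. The most abundant were Dbf4, the activator of the Cdc7 kinase, at 9.52 and 5.87 FPKM against 33.4 and 9.34 FPKM, and Topbp1, needed to activate the helicase, at 8.36 and 5.15 FPKM against 24.5 and 11.5 FPKM. For Dbf4 the groups overlapped. The count of this list was 6 lower without control-labelled replicate 2 and 0 without any other library. Other fork and strand-processing genes were lower in 5 of 20 cases (median -1.12), with 3 when either replicate 1 was left out, 0 without Sox2-labelled replicate 2 and 8 without control-labelled replicate 2. They included Top2a, the topoisomerase that untangles copied DNA, at 12.7 and 4.80 FPKM against 73.0 and 22.0 FPKM, Chtf18, part of an alternative clamp loader, at 1.96 and 0.420 FPKM against 7.29 and 5.96 FPKM, and the fork protection gene Tipin, at 11.5 and 5.44 FPKM against 32.9 and 22.0 FPKM (adjusted p = 0.0268, 0.0216 and 0.0255 in limma).

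Nucleotide metabolism outside the 43 genes had 8 of 23 genes lower and 1 higher (median -1.18); 0 were lower without Sox2-labelled replicate 2 and 13 without control-labelled replicate 2. Shmt1, a folate enzyme that feeds thymidylate synthesis, stood at 4.93 and 2.68 FPKM against 26.7 and 24.5 FPKM (log2 difference -2.50, SE 0.38, adjusted p = 0.00266 in limma). Dctd, which makes the substrate of thymidylate synthase, stood at 0.435 and 0.237 FPKM against 6.01 and 3.61 FPKM (adjusted p = 0.00875 in limma). Samhd1, which breaks down deoxynucleotides, went the other way, at 61.5 and 46.9 FPKM against 17.3 and 7.54 FPKM (log2 difference 2.13, SE 0.40, adjusted p = 0.00769 in limma). Samhd1 was the exception to the downward direction among the calls of these lists. Without Sox2-labelled replicate 1 its adjusted p in limma was 0.0675, and without Sox2-labelled replicate 2 it was 0.0637. Of the calls in these lists, Aurkb and Birc5 still passed without Sox2-labelled replicate 2, with adjusted p = 0.0334 and 0.0222 in limma.

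**Figure D4:**
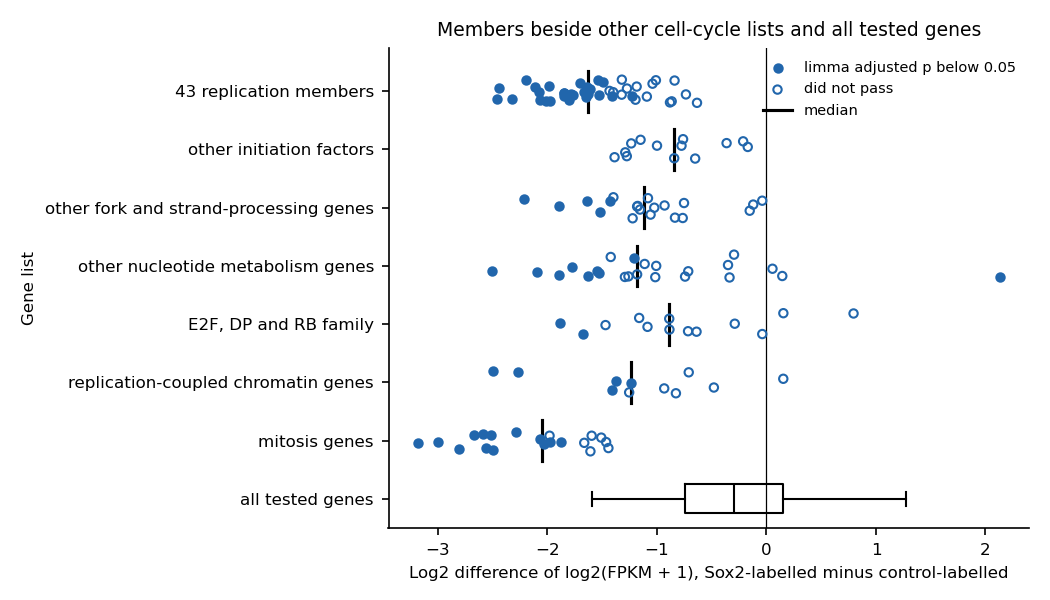
Log2 difference of single genes in the 43-gene set and 6 further lists (points, filled where limma's adjusted p was below 0.05; vertical bars for medians), with a box for all tested genes (line, median; box, quartiles; whiskers, 5th to 95th percentile). Medians run from -2.05 for mitosis genes to -0.84 for other initiation factors, and the point at 2.13 is Samhd1.

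E2F factors and their partners were lower in 2 of 13 cases (median -0.89), where 8.11% of all tested genes were lower. That count rests on few genes and moved with the library left out. E2f8, a repressor of the family that is itself made in S phase, stood at 2.19 and 1.01 FPKM compared with 8.83 and 7.90 FPKM, and the dimer partner Tfdp1 at 16.3 and 7.58 FPKM against 48.1 and 29.9 FPKM (adjusted p = 0.0144 and 0.0245 in limma). Of 11 genes for chromatin on new DNA 5 were lower (median -1.24), led by the histone chaperone Asf1b, at 4.21 and 1.74 FPKM against 25.0 and 16.5 FPKM. Uhrf1 and Dnmt1, which copy DNA methylation, stood at 9.80 and 2.92 FPKM compared with 37.7 and 24.4 FPKM and at 12.8 and 7.75 FPKM against 36.6 and 21.8 FPKM. All 3 were lower, with adjusted p = 0.00503, 0.0126 and 0.0375 in limma. The count for this list was 2 with either replicate 1 left out, 0 without Sox2-labelled replicate 2 and 8 without control-labelled replicate 2.

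The promoters of the 43 genes were read for the motifs of cell-cycle transcription. Promoter letters do not depend on these libraries, so the shares below are no result about the difference between the labels. RefSeq promoters (build GRCm38.p6, the assembly of mm10; 250 bases before to 50 after each listed start, on the gene's strand) were matched by symbol for 35 of the 43 genes. An E2F motif, searched as TTTCCCGC, TTTCGCGC, TTTGCCGC or TTTGGCGC on either strand, was found in 13 of these 35 genes (37.1%), against 2.6% of all genes with a promoter in the table and 4.85% of the tested genes with one. The 13 were Orc1, Cdc6, Cdt1, Mcm3, Mcm5, Mcm6, Mcm7, Gins3, Pola1, Pold1, Pole2, Rfc3 and Lig1. The CCAAT box (CCAAT) was found in 62.9% of the 35 genes against 42.8% of tested genes, and the cell-cycle homology region (TTTGAA) in 14.3% against 14% (41.1% and 20.2% of all genes in the table). Members with and without the E2F letters had similar values, with medians of -1.54 and -1.63, and 9 of 13 against 14 of 22 were lower. A match describes letters, not binding, and its absence says nothing about a factor. Shown are the promoters of the 4 ring subunits that hold the E2F letters, with those letters in capitals, and that of Tk1, the member with the highest ratio, in which none of them occurs. The matches in Mcm5, and a pair of those in Mcm6, overlap each other on opposite strands.
Mcm3, chr1:20820263-20820562, minus strand: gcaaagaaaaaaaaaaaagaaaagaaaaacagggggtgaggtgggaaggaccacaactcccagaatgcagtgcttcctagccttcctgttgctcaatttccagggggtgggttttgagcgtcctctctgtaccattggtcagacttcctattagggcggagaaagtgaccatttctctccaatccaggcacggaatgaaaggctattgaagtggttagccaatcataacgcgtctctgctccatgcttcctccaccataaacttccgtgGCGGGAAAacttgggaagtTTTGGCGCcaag
Mcm5, chr8:75109259-75109558, plus strand: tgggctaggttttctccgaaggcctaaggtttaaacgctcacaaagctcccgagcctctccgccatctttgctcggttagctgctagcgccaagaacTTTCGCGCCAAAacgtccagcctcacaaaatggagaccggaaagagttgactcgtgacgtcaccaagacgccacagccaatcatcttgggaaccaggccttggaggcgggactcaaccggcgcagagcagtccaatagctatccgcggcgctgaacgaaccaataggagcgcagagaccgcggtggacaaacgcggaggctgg
Mcm6, chr1:128359656-128359955, minus strand: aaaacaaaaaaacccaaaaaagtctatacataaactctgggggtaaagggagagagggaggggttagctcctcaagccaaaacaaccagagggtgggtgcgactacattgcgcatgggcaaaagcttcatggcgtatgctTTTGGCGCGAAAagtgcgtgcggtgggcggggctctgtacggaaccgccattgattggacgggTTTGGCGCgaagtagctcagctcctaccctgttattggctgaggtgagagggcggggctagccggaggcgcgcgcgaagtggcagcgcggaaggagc
Mcm7, chr5:138171834-138172133, minus strand: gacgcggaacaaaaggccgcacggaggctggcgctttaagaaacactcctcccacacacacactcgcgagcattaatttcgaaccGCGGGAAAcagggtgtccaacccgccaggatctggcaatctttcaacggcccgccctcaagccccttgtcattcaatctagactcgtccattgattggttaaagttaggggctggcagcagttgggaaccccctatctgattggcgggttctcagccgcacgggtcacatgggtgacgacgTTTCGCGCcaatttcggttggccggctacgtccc
Tk1, chr11:117825965-117826264, minus strand: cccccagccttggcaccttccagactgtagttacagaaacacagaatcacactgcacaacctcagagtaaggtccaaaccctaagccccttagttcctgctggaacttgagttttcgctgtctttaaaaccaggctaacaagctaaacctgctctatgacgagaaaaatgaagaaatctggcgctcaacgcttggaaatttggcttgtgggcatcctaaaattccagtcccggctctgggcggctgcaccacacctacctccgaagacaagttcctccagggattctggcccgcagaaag
Beside these sequences the values of their genes can be set: the log2 differences were -1.78 (Mcm3), -2.08 (Mcm5), -1.97 (Mcm6), -2.32 (Mcm7) and -2.44 (Tk1).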

How the data were processed

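RNA of sorted AT1 cells was sequenced in 4 libraries, 2 per label, grouped by sample title. The authors deposited FPKM of every gene, bounded below and above, per the file headers. The submitters' processing notes name mm10 as the build and list Cufflinks, Cuffdiff, Bowtie2 and TopHat2; strandedness, like versions and gene models, is not given in the sources used here. A combined table, whose columns the labels tie to no group, was not used. Tables of 24490 entries were joined by symbol and position, entries of 1 symbol were added, and 1 gene with a failed value was left out. The 12040 genes whose mean reached 1 FPKM were tested with limma 3.58.1 (R 4.3.3) on log2(FPKM + 1) (lmFit, eBayes with trend, two-sided, Benjamini-Hochberg over all tested genes, threshold 0.05, 2 residual degrees of freedom). An exact permutation test of 2 against 2 libraries cannot go below p = 0.333 and was not used. The script was tested on simulated data. Members and lists were chosen with earlier results of these data known. Named are all 43 members, Sox2, up to 3 genes per further list past the threshold by size of difference (or the 2 most abundant), and markers from the first 2 of each marker list; 1 gene is not reported here. Exon overlaps came from GENCODE M21 (GRCm38). There 15 of the 43 genes shared exon bases with another gene, and only some of these are named above. The alternatives were another pseudocount, filters, 2 rescalings, 2 variance models, a replicate block, and each library left out.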

Additional observations from a re-analysis of the deposited data

How the results depend on the processing

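Of the 43 genes, 28 were lower with a pseudocount of 0.1 (8.22% of all tested genes), 25 of 36 when a mean of 5 FPKM was required (9.16%), 25 under quantile normalization (6.87%), 32 with a robust variance model (11.2%) and 22 with no trend (6.69%), and none was higher in any setting. Without any filter limma called 0 members, 0 other pathway genes and 0 of all genes in either direction. There 21 members had an unadjusted p below 0.05, and the matching share of all genes was not taken. The total degrees of freedom per gene were then 2.85 in place of 10.9. Leaving out 1 library in turn gave 0 to 33 lower members, 0 to 1 higher and 2 to 58 lower other pathway genes, 119 to 837 higher and 115 to 1312 lower genes among all tested; the lowest counts came without Sox2-labelled replicate 2, and the single higher pathway gene was also lost without Sox2-labelled replicate 1. Median-of-ratios rescaling called 964 genes higher and 686 lower (58.4% higher in place of 34.1%), quantile normalization 980 and 827 (54.2%), and each gave 2 higher other pathway genes; the cause was not tested. The replicate numbers of the titles are not stated to mark a litter or day, and the deviations of same-numbered libraries had r = 0.23 across genes. With the replicate block 41 of the 43 members were lower, among 2730 lower and 1142 higher genes in all (22.7% lower), with 74 lower and 2 higher other pathway genes. Of the 13 other initiation factors, none of which was called, 8 were lower with the block, 2 with the robust model and 1 under quantile normalization. The difference of the leukocyte marker Cd68, which did not pass, ran from -0.75 to 0.79 with 1 library left out and changed sign. Depth is unknown, so no limit from counting can be given.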
